A study of Homo sapiens with 6 samples.

Results

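The comparison described here set the RNA recovered with AGO2 from cells given a miR-99b-5p mimic against the RNA recovered with AGO2 from cells given a scrambled oligonucleotide. It used 3 of the 6 libraries of the series, which were taken by their labels: 2 mimic AGO2-IP libraries, labelled as biological replicates 1 and 2, and 1 control AGO2-IP library. Of the 60708 genes listed in each library, the 11467 with a summed count of at least 200 over these 3 libraries were kept, and 10812 of them were protein-coding. All samples were of MDA-MB-231, an established human cell line of triple-negative breast cancer, and were collected 18 hours after transfection at 25 nM, so that the oligonucleotide was the labelled difference between the groups. The flow-through libraries hold the RNA that the AGO2 pull-down left behind, and their mimic over control values are given only beside those of the AGO2-IP. The labels name 1 fraction for each control library, whereas the study also describes both as control replicates with no fraction named, and the labelled fractions were used.

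AGO2 is the Argonaute protein that holds a microRNA and guides it to messenger RNAs. Pairing is led by the seed, which is bases 2 to 8 of the microRNA, and a bound message is usually repressed or degraded through TNRC6 proteins and the deadenylation machinery. Immunoprecipitation of AGO2 followed by sequencing recovers the RNAs in these complexes together with RNA carried along by the beads, the antibody or abundant proteins. A message bound through the mimic can therefore be higher in the mimic AGO2-IP, while a message that the cells hold less of can be lower in it.

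miR-99b-5p belongs to a family of 3 mature human microRNAs with the same seed, and their sequences are shown because the search for sites rests on this seed. They are from RefSeq (GRCh38.p14), run 5′ to 3′, and carry the seed in capitals. miR-99b-5p is encoded at chr19:51692618-51692639 on the plus strand.
hsa-miR-99b-5p: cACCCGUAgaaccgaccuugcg
hsa-miR-99a-5p: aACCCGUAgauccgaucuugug
hsa-miR-100-5p: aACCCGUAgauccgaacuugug
The seeds were identical over all 7 bases, so a site for one is a site for each. A message that pairs with the seed carries TACGGGT, which is called 7mer-m8. With an A after it the match becomes TACGGGTA, the 8mer, and ACGGGTA is called 7mer-A1. The shortest match, ACGGGT, is called 6mer. The genes of the family gave almost no counts in this assay. MIR99B and MIR99A had 0 counts in all 3 AGO2-IP libraries, and MIR100 had 0, 0 and 2, so the counts do not check how much mimic AGO2 held.

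The sites below are those of genes named later whose ratios lay at the high end, near 0 and at the low end. Each is given with 10 bases on either side, in the sense of the transcript and with the match in capitals, at its GRCh38 position in the 3′ UTR of the Ensembl canonical transcript.
AP1AR, 8mer, chr4:112269276-112269303, plus strand: aaaaaggtaaTACGGGTAtttcaaataa
FKBP5, 8mer, chr6:35574448-35574475, minus strand: tttcagtcctTACGGGTAaacagattga
TAOK1, 8mer, chr17:29548623-29548650, plus strand: ccccccaaagTACGGGTAattcaacctg
MTOR, 7mer-m8, chr1:11107174-11107200, minus strand: actttagaaaTACGGGTtttgacttaa
IGF1R, 8mer, chr15:98963034-98963061, plus strand: tccagtagatTACGGGTAgtcagttgac
FGFR3, 8mer, chr4:1807789-1807816, plus strand: agactgaaatTACGGGTAcctgaagatg
SIAE, 8mer, chr11:124633855-124633882, minus strand: gctcttttaaTACGGGTAttactcaggc
The 6 sites called 8mer hold the same 8 bases, and the flanking bases differ.

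The libraries differed in what their reads held before any gene was compared. In the control AGO2-IP 4.97% of 162644207 read pairs were counted on a gene and 76.7% mapped to several places. In the mimic AGO2-IP libraries 78.1% and 78.6% were counted on a gene, and 2.71% and 2.38% mapped to several places. The counts on genes were 8076375 in the control and 46743572 and 38022779 in the mimic libraries, so a count of 1 in the control stood for about as much as several counts in a mimic library. Mitochondrially encoded genes held 3.48% of the gene counts in the control and 0.0116% and 0.0958% in the mimic libraries. Protein-coding genes held 95.4%, 98.7% and 98.5%. The control flow-through also had a low share of pairs on genes, 7.74%, against 64.9% and 52.8% in the mimic flow-through. This difference in composition lies between the control libraries and the mimic libraries, so it cannot be told apart from the effect of the oligonucleotide.

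Each ratio below is the log2 ratio of CPM, the counts of a gene scaled to a common library total (by TMM, prior count 2), in a mimic AGO2-IP library over the control AGO2-IP. A gene was counted as higher when its ratio was 1 or more in both mimic libraries and as lower when it was -1 or less in both. With 1 control library there is no spread in the control group and no test was made, and both ratios of a gene share that control library, so its counting and sampling error enters both alike. In such bulk libraries, fewer molecules bound per cell and fewer cells cannot be told apart. Of the 11467 genes, 1398 were higher (12.2%) and 1397 were lower (12.2%), and the median ratio was 0.02. Counts within the gene lists below are to be read beside these shares. The ratio between the mimic libraries, into which the control does not enter, had an SD of 0.79 on the log2 scale and a median size of 0.43. A further 47 genes were at 1 or more in one mimic library and at -1 or less in the other.

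**Figure D1:**
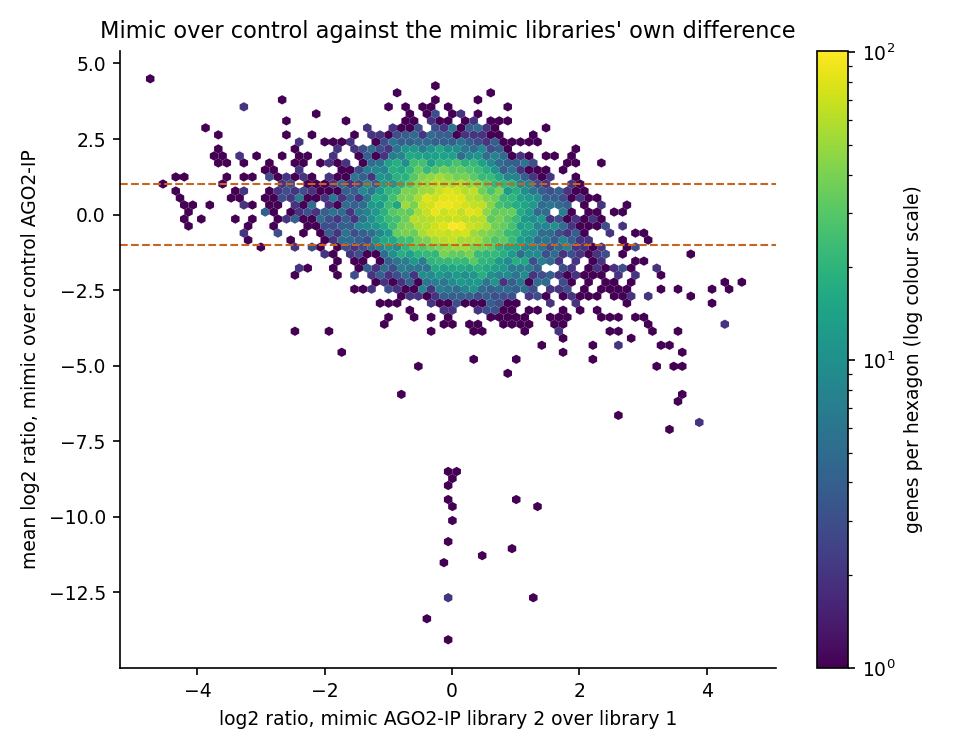
Mean log2 ratio of the mimic over the control AGO2-IP (vertical axis) against the log2 ratio of mimic library 2 over mimic library 1 (horizontal axis) for 11467 genes, with colour giving the genes per hexagon on a log scale and dashed lines at 1 and -1. Most genes lay within 2 log2 units of 0 on both axes, and a small group at the bottom, down to -14.07, consisted of genes with many control counts and almost none in the mimic libraries.

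The 10 highest protein-coding genes, ranked by the ratio nearer 0, included NCL, HNRNPA2B1 and GAR1, whose proteins bind RNA in the nucleus or nucleolus. NCL encodes nucleolin, a major protein of the nucleolus. Its counts were 1004 in the control and 74475 and 92462 in the mimic libraries, or 117, 1612 and 2556 CPM. Both mimic libraries lay far above the control, and the mean log2 ratio was 4.12 ± 0.47 (SD, n = 2), a 17.4-fold difference. HNRNPA2B1, an hnRNP that binds and transports messages, was at 282, 3444 and 4692 CPM, with a mean ratio of 3.84 ± 0.32 (SD, n = 2). GAR1, a core protein of the box H/ACA particles that guide pseudouridylation of ribosomal RNA, was at 17.8, 267 and 229.8 CPM, with a mean ratio of 3.79 ± 0.15 (SD, n = 2). In these genes the mimic libraries differed from each other by less than 2-fold and from the control by more than 10-fold. The other genes of the 10 highest were HMGB1, a DNA-bending chromatin protein (mean ratio 3.60), UTP3, of the small-subunit processome (3.60), HNRNPH2 (3.69), the co-chaperones CHORDC1 (3.56) and DNAJB4 (3.28), the helicase-like HLTF (3.31) and the 3′-end processing factor CSTF3 (3.28). None of these 10 had a site of 7 or 8 bases, and DNAJB4 had a 6mer.

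The flow-through separated these genes. NCL was also higher there, at 0.93 and 0.97, while HNRNPA2B1 was at 0.08 and -0.16 and HMGB1 at 0.23 and -0.83. GAR1 was at 0.98 in the first flow-through ratio and -1.08 in the second. Of the 1363 higher genes with a flow-through ratio, 82 were at 1 or more in both flow-through ratios, which is 82 of the 268 genes that were so among those tested in both fractions. Over all 12254 genes tested in the flow-through, 343 were at 1 or more in both ratios (2.8%).

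The hnRNP genes were also counted as a list. These proteins coat nascent messages and act in splicing, export and stability. Of 20 hnRNP genes tested, 15 were higher (75%) and none was lower, against 12.2% of all genes in each direction. Their median ratio was 2.14 against 0.02 over all genes. The lowest were HNRNPUL1, at -0.53 and -0.39, and HNRNPA0, at 0.88 and 0.15. HNRNPK, which binds poly(C) stretches, was at 2.75 and 2.49, HNRNPU, a nuclear scaffold protein, at 2.76 and 3.47, and HNRNPD, an AU-rich element binding protein also known as AUF1, at 3.01 and 3.20. HNRNPC was at 2.29 and 1.42. The median of the list in the flow-through was 0.18, and HNRNPD had a mean of -0.90 there. HNRNPA1 and several relatives have processed copies, and pairs that map to several places were not counted, so their levels are uncertain; the copy HNRNPA1P7 had 64, 1709 and 1477 counts.

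Other splicing genes were also above the median of all genes. Of 11 SR splicing factors, which bind exonic enhancers, 6 were higher (54.5%) and none lower, against 12.2% of all genes in each direction. Their median was 1.27 and their flow-through median -0.23. SRSF3, whose 3′ UTR holds an 8mer, was at 327, 1264 and 910 CPM and at ratios of 1.95 and 1.48, and SRSF10 at 2.04 and 1.52. SRSF9 was at 0.998 and 0.46 and did not pass in both. Of 49 spliceosome core genes, 18 were higher (36.7%) and none lower, with a median of 0.96. With the trend of ratio on GC content removed, which is described below, the medians were 0.82 for the SR factors and 0.47 for the spliceosome core. SF3B1, the branch-site binding subunit of the U2 particle, was at 164, 586 and 1261 CPM and at ratios of 1.83 and 2.94. SNRPD1, a ring protein of the spliceosomal particles, was at 2.35 and 2.09. The mimic libraries were above the control for both genes, though they differed from each other by more than 2-fold for SF3B1. PRPF40B and LSM12, at the low end of this list, had mean ratios of -0.75 and -0.75.

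After these leading genes had been seen, lists of nucleolar genes and of chaperones were written out and counted, so their direction was known when they were chosen. Of 27 nucleolar and ribosome assembly genes, 15 were higher (55.6%) and none lower, with a median of 1.44 and a flow-through median of 0.69. NPM1, the nucleolar chaperone nucleophosmin, was at 3.45 and 2.53, DDX21, a nucleolar helicase, at 2.73 and 3.14, and NOLC1 at 2.28 and 2.63. NOP56 and BOP1 were near 0, at mean ratios of -0.04 and -0.19. Of 18 cytosolic and mitochondrial chaperones, 10 were higher (55.6%) and none lower, with a median of 1.80. HSP90AB1, which helps load small RNAs into Argonaute, was at 678, 3976 and 3633 CPM, or ratios of 2.55 and 2.42, with flow-through ratios of 1.32 and 1.34. HSPB1 was at -1.81 and -0.02, so that the first mimic library lay below the control and the second beside it.

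The machinery of the microRNA pathway itself was measured in 20 genes, of which 6 were higher (30%) and none lower. Their median was 0.57 and their flow-through median 0.53. AGO2, the protein that was pulled down, had 2769, 17921 and 22686 counts of its own message, or 322, 388 and 627 CPM. Its ratios of 0.27 and 0.96 were below the limit used. The scaffold genes TNRC6B and TNRC6C, whose proteins bind Argonaute and recruit deadenylases, were at 1.37 and 2.19 and at 1.17 and 2.30. DDX6, a helicase of processing bodies, was at 1.32 and 1.60 and AGO3 at 1.28 and 1.16. TARBP2, the partner of DICER1 in processing, was at -0.05 and 0.03. LIMD1 and PRKRA were the lowest, with mean ratios of -0.35 and -0.29. The 6 higher genes of this list included 2 HSP90 genes that the list of chaperones also holds.

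Lists for other functions of the cell had medians from 0.03 to 0.68. The 81 cytosolic ribosomal protein genes had a median of 0.10, and 2 of them were lower (2.47%), FAU (-1.84 and -1.31) and RPLP1 (-1.42 and -1.11). The 68 nuclear respiratory chain subunits had a median of 0.03, with 3 higher (4.41%) and 4 lower (5.88%), against 12.2% of all genes in each direction. Of 55 translation factors 11 were higher (20%) and 1 lower (1.82%). EIF5B was at 2.43 and 2.56 and EIF4E at 2.47 and 1.99, while EIF2AK3, the PERK kinase, was lower at -1.40 and -1.23. Of 36 proteasome subunits 4 were higher (11.1%), close to the 12.2% of all genes, among them PSMD12 at 2.55 and 2.24 and PSMC6 at 2.37 and 1.89. Of 32 ubiquitin-conjugating enzymes 4 were higher (12.5%), again close to that share, among them UBE2V2 at 3.02 and 2.43 and UBE2K at 1.77 and 2.04. Of 399 ZNF genes 53 were higher (13.3%), close to the 12.2% of all genes, and 9 lower (2.26%), with a median of 0.52. ZNF594 was at 2.87 and 2.59 from only 20 control counts. Of 35 cell cycle genes 9 were higher (25.7%) and 1, E2F1, was lower, at -1.84 and -1.19, and their median of 0.68 was the farthest from 0 of these lists. The proliferation marker MKI67 was at 167, 689 and 1867 CPM and TOP2A, a topoisomerase of dividing cells, at 141, 991 and 1171 CPM, with every mimic library above the control.

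The lowest ratios of all were those of ribosomal repeat transcripts, which are given below, and the protein-coding genes with the lowest ratios are described first. NGFR, the low-affinity neurotrophin receptor, had 2341 control counts and 266 and 122 in the deeper mimic libraries, or 272, 5.76 and 3.37 CPM. The ratios were -5.55 and -6.31, so that the control was 60.9-fold above the mimic mean on the log scale. CSF2, the cytokine GM-CSF, was at 125 CPM in the control and 2.47 and 4.53 in the mimic libraries. TXNDC5, a disulfide isomerase of the endoplasmic reticulum, was at 55.4, 1.99 and 1.35 CPM. LCN2, a secreted iron-binding protein, was at 51.0, 0.13 and 2.27 CPM, with the mimic libraries themselves more than 10-fold apart. The remaining protein-coding genes of the 10 lowest were LTB (mean ratio -4.91), CXCL1 (-4.65), PCDH1 (-4.61), MT-ND2 (-6.57), MT-ND6 (-7.00) and MT-ATP6 (-5.99). For all of these genes but TXNDC5 the flow-through ratios were also at -1 or less in both libraries, for example -4.54 and -3.94 for NGFR and -4.72 and -1.33 for LTB. TXNDC5 was at -0.40 and 0.75 there. Of the 1376 lower genes with a flow-through ratio, 232 were at -1 or less in both flow-through ratios, which is 232 of the 356 genes that were so among those tested in both fractions. Over all flow-through genes, 410 were at -1 or less in both ratios (3.35%).

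All 15 mitochondrially encoded genes that were tested were lower, with a median ratio of -4.98 and a flow-through median of -6.04. The 2 mitochondrial ribosomal RNAs differed most. MT-RNR1 had 122459 control counts and 220 and 345 mimic counts, or 14254, 4.76 and 9.54 CPM, and MT-RNR2 was at 11300, 11.2 and 23.1 CPM. The messages of the genome were less far apart and less even between the mimic libraries. MT-ND5, a subunit of complex I, was at 812, 17.7 and 203 CPM, so that the second mimic library held more than 10 times the level of the first. Transcripts of the nuclear ribosomal RNA repeats were lower as well. RNA5-8SN1 had 9748 counts in the control and 0 in both mimic libraries, where 0 allows up to 3 counts a library, so the control was at least 13680-fold higher. Of the unnamed genes in the ribosomal repeat region of chromosome 21, ENSG00000281383 had 9527, 2 and 7 counts and ENSG00000280441 had 6846, 1 and 0. These values describe a control AGO2-IP with more ribosomal repeat and mitochondrial RNA among its counted pairs. In the flow-through ENSG00000281383 had 10415 control counts and 20 and 2 mimic counts, and ENSG00000280441 had 2919, 356 and 2. RNA5-8SN1 had only 20, 0 and 7 there. What the multimapping pairs held was not measured. The part of these composition differences in the other ratios was not tested.

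A list of cytokine and feedback genes controlled by NF-kB was written out after CSF2, LCN2 and CXCL1 had been seen among the lowest genes. Of its 23 genes tested, 18 were lower (78.3%) and 1 higher (4.35%), with a median of -2.61 and a flow-through median of -2.50. IL6 was at -3.22 and -2.83, CXCL8 at -2.82 and -3.15, IL1A at -4.00 and -3.12, the adhesion molecule ICAM1 at -4.35 and -3.17, and NFKBIA, the inhibitor that NF-kB induces, at -1.98 and -2.07. NFKB1 itself was at 0.10 and 0.06. IL11 was the exception, with 683 control counts and 16049 and 9120 mimic counts, ratios of 2.13 and 1.66, and a flow-through mean of 2.34. The flow-through means of IL6, IL1A and SAA1 were -3.07, -4.02 and -3.46, near their AGO2-IP means of -3.03, -3.56 and -3.43, while RELB (-2.03 in the AGO2-IP) and LIF (-1.46) had flow-through means of -0.07 and -0.15.

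Genes of the endoplasmic reticulum were counted in the same way, from a list written after TXNDC5 had been seen. Of 41 genes for folding and translocation 22 were lower (53.7%) and 1 was higher (2.44%). Their median was -1.54 and their flow-through median -1.36. PDIA4, a disulfide isomerase, was at 515, 52.1 and 75.9 CPM, or ratios of -3.30 and -2.76. HSPA5, the chaperone BiP, was at 463, 155 and 73.9 CPM, or -1.58 and -2.64. SEC61G, a small subunit of the translocon, was the higher one, at 2.36 and 2.03. DNAJB11 was at 1.20 and 0.07. In the list of ATF4 and unfolded protein stress genes, which HSPA5 also belongs to, 6 of 16 were lower (37.5%) and none higher. Their median was -0.85, and DDIT4 and PSAT1 were at mean ratios of 0.59 and 0.60. Of 47 genes for integrins, laminins and collagens 18 were lower (38.3%) and none higher, with a median of -1.20 and a flow-through median of -0.33. COL6A2 was at 108, 4.44 and 14.1 CPM, while COL1A1 was at 0.87 and 0.93.

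**Figure D2:**
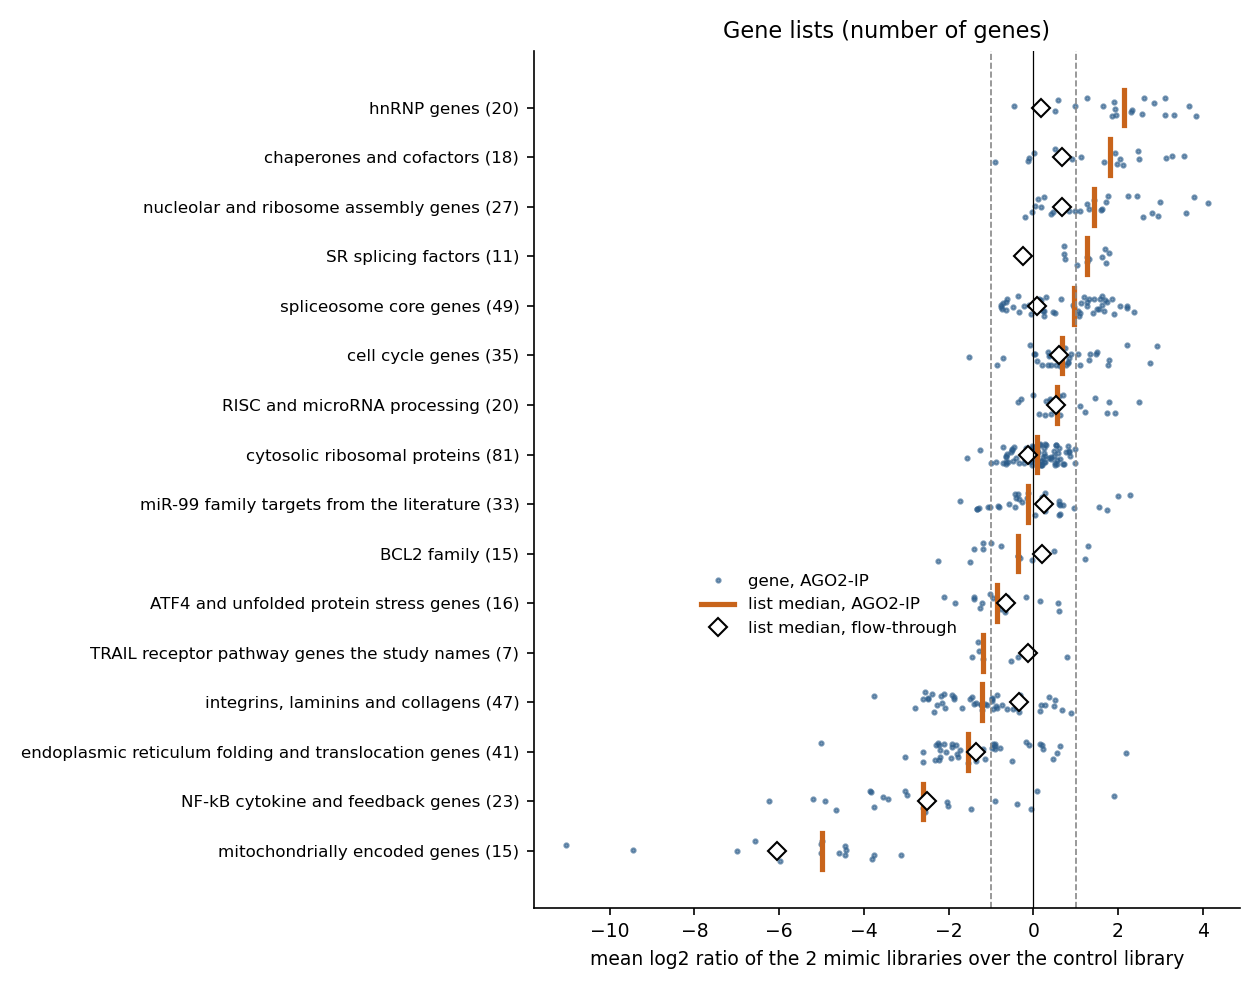
Mean log2 ratio of the mimic over the control AGO2-IP for the genes of each list (points), with the list median in the AGO2-IP (orange bar) and in the flow-through (open diamond), the number of genes in brackets and dashed lines at 1 and -1. The hnRNP median (2.14) and the SR median (1.27) lay away from their flow-through medians (0.18 and -0.23), whereas for the NF-kB list (-2.61 and -2.50) and the endoplasmic reticulum list (-1.54 and -1.36) the medians of both fractions lay close together.

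The genes of the TRAIL pathway were set apart because the study names them. TRAIL is a death ligand that binds the receptors TNFRSF10A (DR4) and TNFRSF10B (DR5). The receptors recruit FADD and the initiator caspases CASP8 and CASP10, and BID and BAK1 carry the signal to mitochondria. The median ratio of these 7 genes was -1.19, against 0.02 over all genes. Of the 7, 3 were lower (42.9%) and none was higher, against 12.2% of all genes in each direction. The study intersected messages taken as higher in the mimic AGO2-IP of these samples with predicted targets and apoptosis genes. Those candidates led it to this pathway, so the list was not chosen independently of these samples. It names TNFRSF10B and BAK1 among the candidates, and it measured all 7 genes in xenograft tumors by qRT-PCR. For TNFRSF10B it also used RIP-qRT-PCR and a luciferase reporter. By Western blot it reported more DR5 and BAK1 protein after miR-99b-5p inhibition in MDA-MB-231, and more DR5 in xenograft tumors. All these measurements lie outside these counts. TNFRSF10B had 1412 control counts and 3796 and 2023 mimic counts, or 164, 82.2 and 55.9 CPM. Both mimic libraries lay below the control, at ratios of -0.999 and -1.55, but the first came just short of the limit and the gene was not counted as lower. TNFRSF10A was lower, at 53.8, 24.9 and 15.4 CPM and ratios of -1.11 and -1.79. FADD, the adaptor, was lower at 56.6, 25.4 and 20.4 CPM, and BID at 103, 43.9 and 46.0 CPM. CASP8 was on the other side, at 9.89, 12.7 and 23.6 CPM, with a ratio of 0.36 in the first and 1.25 in the second mimic library. CASP10 rested on 40 control counts, with a 95% counting interval of 3.33 to 6.34 CPM in the control that holds the second mimic value of 4.17 but not the first of 2.49. BAK1 was at 95.2, 66.7 and 81.7 CPM, below the control in both mimic libraries.

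No 3′ UTR of these 7 genes held a site of 7 or 8 bases in the transcript that was searched, and BID held a 6mer. In the flow-through the list had a median of -0.12, with no gene at the limit in both ratios, and TNFRSF10B was at -0.75 and 0.00. The genes of the list have a median GC of 49.7%, and removing the trend of ratio on GC that is described below moved the list's median to -0.65. It also turned BAK1 to 0.35 and left FADD at -0.65, short of the limit, while TNFRSF10B was at -1.12, TNFRSF10A at -1.27 and BID at -1.15.

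Other apoptosis genes lay on both sides of 0. The ligand TNFSF10 was lower, at 67.0, 15.3 and 23.7 CPM, with flow-through ratios of -1.99 and -3.57. TNFRSF1A, a receptor of TNF, was lower at -1.37 and -1.42, and BIRC2, an inhibitor of apoptosis, was higher at 1.27 and 1.04. Of 15 genes of the BCL2 family 5 were lower (33.3%) and 1 higher (6.67%), against 12.2% of all genes in each direction. Their median of -0.37 became 0.01 once the GC trend was removed. BAD, a BH3-only protein, was at 18.3, 3.29 and 4.40 CPM, or -2.45 and -2.04. BMF, another BH3-only protein, was at -1.42 and -1.56, and the survival protein MCL1 was at 443, 1158 and 1015 CPM, or 1.39 and 1.20. BCL2L1, which encodes BCL-XL, was at -0.63 and -1.37. Without the GC trend the means of BIRC2 and TNFRSF1A were 0.28 and -0.75, short of the limit, while BAD was at -1.22 and MCL1 at 1.09.

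Among the other genes that the study names, the kinase JNK1 gene MAPK8 was higher, at 32.2, 91.8 and 83.7 CPM and ratios of 1.51 and 1.37, with 0.96 and -0.99 in the flow-through and a mean of 0.58 without the GC trend. JNK2, encoded by MAPK9, was at -0.70 and -0.43, and MAPK10 had 12, 23 and 4 counts and was not tested. BAX was at -0.12 and -0.51 and turned to a mean of 0.53 without the GC trend. GAPDH, a glycolytic enzyme often used as a reference, was at 211, 132 and 186 CPM, or -0.67 and -0.18, and turned to 0.14 without the GC trend. The median of the 8 tested genes was -0.37 and became 0.27 without the trend.

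**Figure D3:**
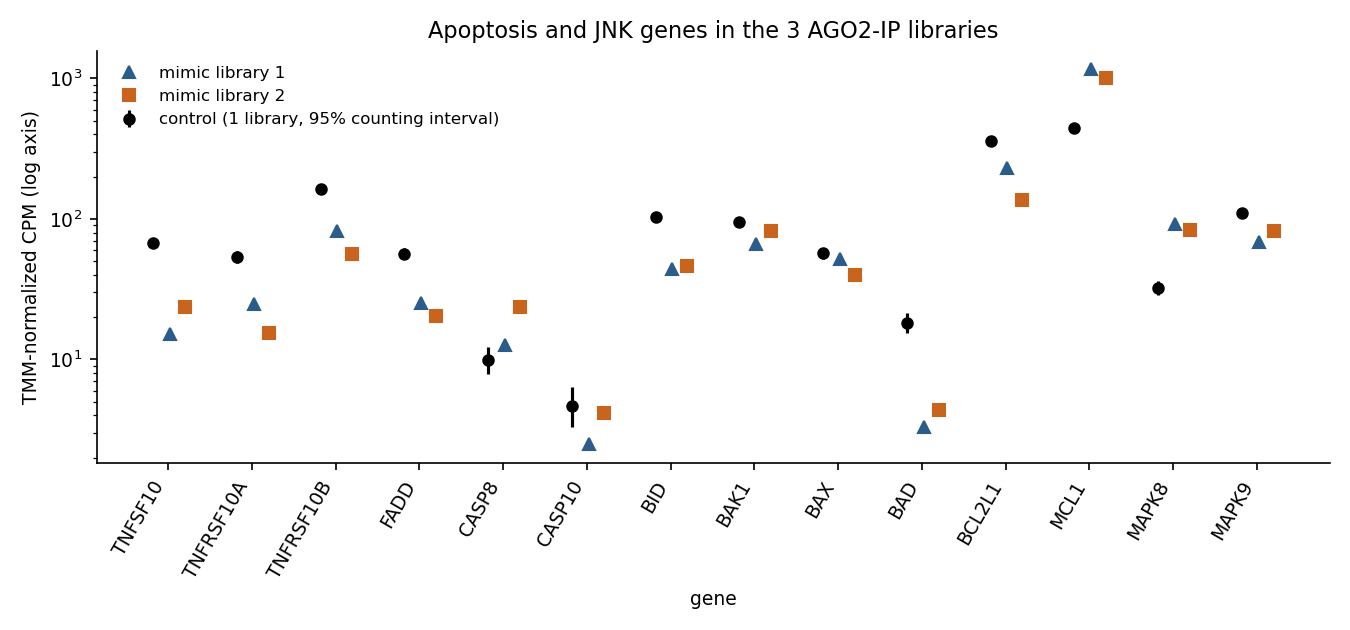
TMM-normalized CPM (log axis) of apoptosis and JNK genes in the control AGO2-IP (black circles, with 95% counting intervals) and mimic AGO2-IP libraries 1 (triangles) and 2 (squares). CASP8, MCL1 and MAPK8 sat above the control in both mimic libraries, and the other genes shown sat below it in both. For CASP10 and BAX a mimic value lay inside the control's interval.

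The ratio of a gene went with the GC content of its transcript. Over the 10812 protein-coding genes Spearman's rho between the mean ratio and transcript GC was -0.60 and Pearson's r was -0.56; genes are not independent replicates, and all ratios share the control library. The genes were put into 5 groups of nearly equal size by GC. In the group of lowest GC, from 30.7% to 40.4%, the median ratio was 0.84, with 32.6% of genes higher and 1.99% lower. In the group of highest GC, the median was -0.84, with 0.509% higher and 30.4% lower. The medians between were 0.50, 0.04 and -0.42. Each mimic library gave the same order, with rho of -0.53 and -0.60. In the flow-through the order was the opposite, with rho of 0.36 over 10688 genes and medians from -0.35 to 0.41. Ratio and transcript length had a rho of 0.21, and the group of lowest GC also had the longest transcripts, with a median of 4544 bases against 2623 in the group of highest GC. With the GC trend removed 824 genes were higher and 1014 were lower, while the hnRNP median was 1.81, the NF-kB median -2.86 and the median of the endoplasmic reticulum list -1.65. Besides the SR factors and the spliceosome core, the ZNF genes and the integrins, laminins and collagens came nearer 0, with medians of 0.21 and -0.74. Genes counted as higher or lower whose mean then fell short of the limit included SRSF10 (0.82), UBE2K (0.95), ZEB1 (0.92), FAU (-0.98) and E2F1 (-0.62).

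**Figure D4:**
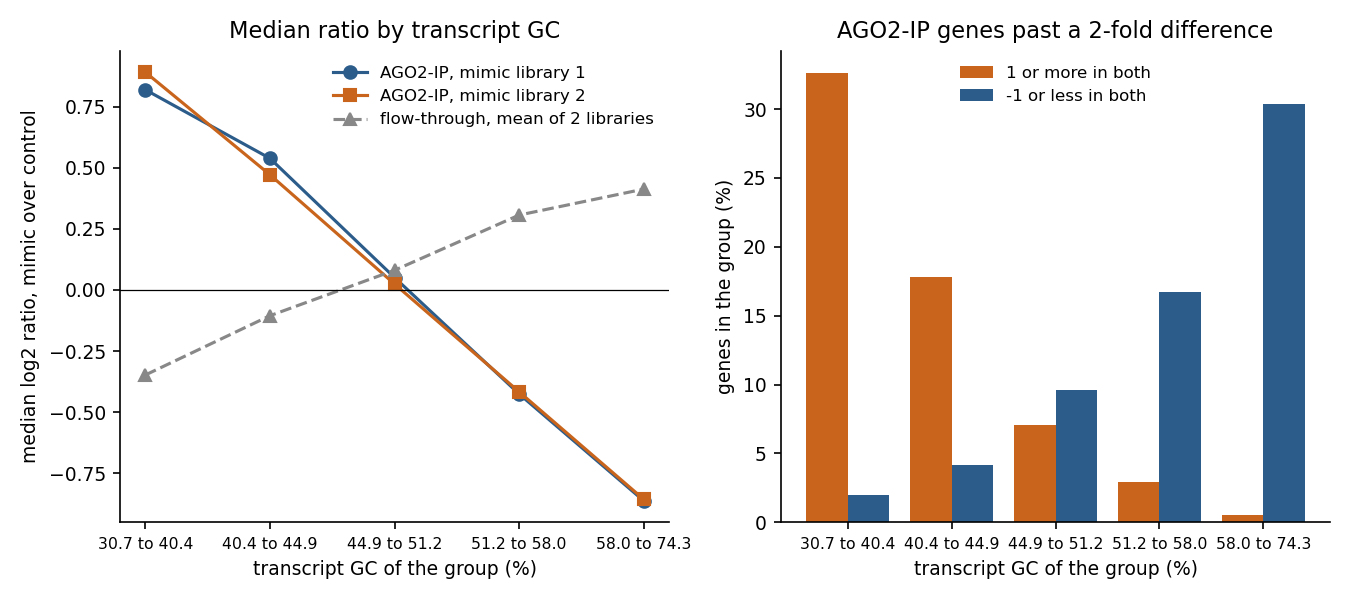
Left, median log2 ratio of mimic over control by transcript GC in 5 groups of genes (horizontal axis, percent) for mimic AGO2-IP library 1 (circles), mimic AGO2-IP library 2 (squares) and the mean of the flow-through ratios (triangles); right, percentage of protein-coding genes in each group at 1 or more (orange) or -1 or less (blue) in both AGO2-IP ratios. The AGO2-IP medians run from 0.84 down to -0.84 and the flow-through medians from -0.35 up to 0.41.

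Genes with a site for the miR-99 seed were then set against genes without one. Of the 10796 protein-coding genes with a 3′ UTR to search, 35 had an 8mer as their best match, 114 a 7mer-m8, 96 a 7mer-A1 and 487 a 6mer. The median ratio was 0.37 for genes with an 8mer, 0.14 for 7mer-m8, 0.03 for 7mer-A1 and -0.12 for 6mer, against 0.01 for the 10064 genes without a match. The quartiles of the 8mer genes ran from -0.41 to 0.80 and those of the genes without a match from -0.72 to 0.73, so the classes overlapped over most of their range. The 8mer genes had a median GC of 42.9% and the genes without a match 47.5%. With the GC trend removed the medians were -0.06, 0.12, 0.01 and 0.02 for the 4 site classes and 0.04 without a match. The 245 genes with a site of 7 or 8 bases together had a median of 0.09, and 20 of them were higher (8.16%) and 27 lower (11%), against 12.4% and 12.4% of the genes without a match. Within the 5 groups by GC, the median of genes with such a site was 0.81 against 0.84 in the lowest and -0.73 against -0.84 in the highest.

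The same count was made for the seeds of 11 other microRNAs, among them miR-21, let-7a and miR-122. The median of genes with a site of 7 or 8 bases minus that of genes without a match ran from -0.25 for miR-125a-5p to 0.65 for miR-200b-3p, and it was 0.07 for miR-99. These differences went with GC, since genes with a miR-200b-3p site had a median GC of 42.1% and those with a miR-125a-5p site 49.3%. With the GC trend removed the differences ran from -0.14 to -0.01 for the other microRNAs and the difference was -0.01 for miR-99. Many genes hold sites for several of these seeds, so the 12 values are not independent.

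**Figure D5:**
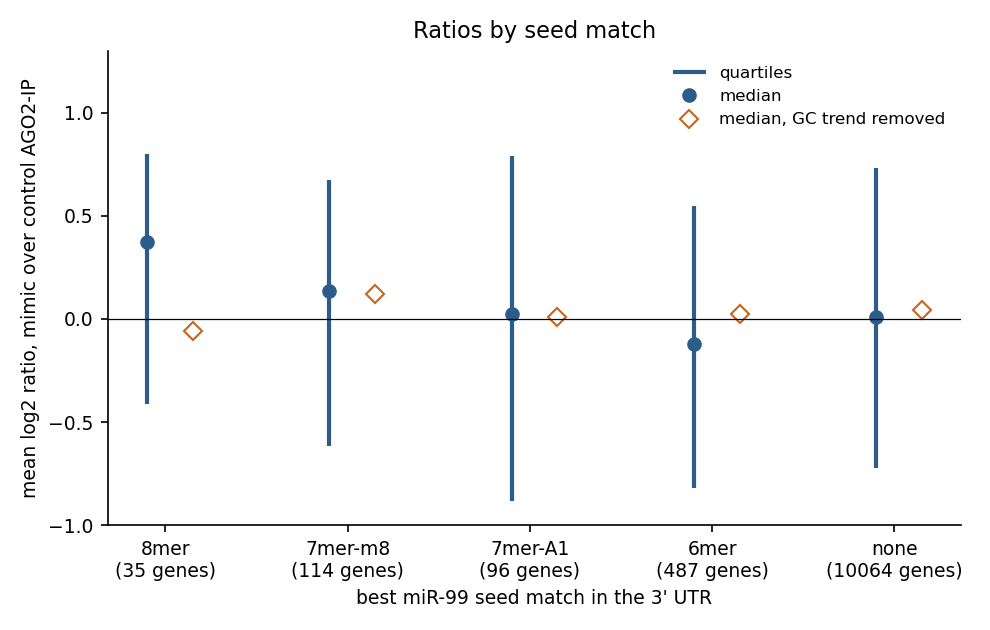
Median (circle) and quartiles (bar) of the mean log2 ratio of mimic over control AGO2-IP by the best miR-99 seed match in the 3′ UTR, with the median after removal of the GC trend (open diamond) and the number of genes in brackets. The 8mer median of 0.37 became -0.06 without the GC trend, and the bars of all classes overlapped.

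Single genes with a site spread over the whole range. FKBP5, an immunophilin and co-chaperone that is a published target of the family, had 340 control counts and 5529 and 4146 mimic counts, or 39.6, 120 and 115 CPM. The mimic libraries agreed closely and lay above the control, at ratios of 1.60 and 1.53, and the flow-through was at -0.43 and -0.66. AP1AR, a regulator of a clathrin adaptor complex, was at 24.6, 111 and 68.5 CPM, or 2.18 and 1.48. TAOK1, a kinase upstream of MAPK signalling, was at 131, 271 and 370 CPM, or 1.05 and 1.49. Together with SRSF3 these were the 4 higher genes of the 35 with an 8mer (11.4%), against 12.4% of the genes without a match. Their means without the GC trend were 1.17 for FKBP5, 1.04 for AP1AR, 0.97 for SRSF3 and 0.57 for TAOK1. KBTBD8, with 17 control counts and 1206 and 91 mimic counts, was at 3.68 and 0.34, so that its mean of 2.01 rested on the first mimic library. At the other end, SIAE, a sialic acid esterase, was at 10.6, 1.71 and 2.82 CPM, or -2.59 and -1.88. FGFR3, a growth factor receptor that is also a published target, was at 6.05, 2.08 and 2.93 CPM, or -1.51 and -1.03. ST6GALNAC4, a sialyltransferase, was at -1.55 and -1.13. These were the 3 lower genes with an 8mer (8.57%), against 12.4% of the genes without a match. Without the GC trend SIAE was at -2.83, FGFR3 at -0.36 and ST6GALNAC4 at -0.38.

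Of 33 tested genes that the literature names as targets of the family, 3 were higher (9.09%) and 4 lower (12.1%), against 12.2% of all genes in each direction, with a median of -0.13 that became 0.18 without the GC trend. The higher ones were FKBP5, SMARCA5, a chromatin remodelling ATPase, at 2.51 and 2.07, and MBNL1, a splicing regulator, at 1.71 and 1.76. SMARCA5 and MBNL1 had a 7mer-m8, and so did FZD5 among the lower genes, where FGFR3 had an 8mer. The lower ones were FGFR3, INSR, the insulin receptor, at -2.19 and -1.28, FZD5, a Wnt receptor, at -1.42 and -1.25, and AKT1, at -1.38 and -1.26. Without the GC trend the means of MBNL1 (0.86), AKT1 (-0.45) and FGFR3 fell short of the limit, while SMARCA5 was at 1.48, INSR at -1.53 and FZD5 at -1.08. MTOR, the kinase of the complexes that sense nutrients, was at 73.0, 125 and 104 CPM, or 0.77 and 0.50, with flow-through ratios of 0.91 and 0.93. IGF1R was at 68.1, 79.1 and 69.8 CPM, or 0.22 and 0.04, where the second mimic value lay inside the control's counting interval of 62.7 to 73.8 CPM. RPTOR, the partner of MTOR in complex 1, was at -0.29 and -0.44. BMPR2, TMEM30A, RRAGD, ICMT and SLC44A1 were below the control in both mimic libraries, with mean ratios of -1.07, -1.03, -0.57, -0.80 and -0.84. BMPR2 and TMEM30A had a 7mer-A1, and RRAGD, ICMT and SLC44A1 a 7mer-m8. NXF1, NR6A1, PPP3CA and MTMR3 were above the control, with 0.97, 0.71, 0.61 and 0.60. NR6A1 had an 8mer, and PPP3CA and MTMR3 a 7mer-m8.

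The markers of the cell line were present in all 3 libraries. Of 15 mesenchymal markers of MDA-MB-231, 14 reached 1 CPM in the control and 13 in each mimic library, with summed levels of 5889, 3224 and 3625 CPM. Of the 13 tested, 5 were lower (38.5%) and 2 higher (15.4%). AXL, a receptor kinase, was at -2.28 and -2.11 and PLAU, the urokinase, at -2.53 and -2.37, while MSN, a membrane linker, was at 1.81 and 1.22 and ZEB1, a driver of the mesenchymal state, at 1.98 and 1.40. Luminal breast markers summed to 802, 607 and 638 CPM, with 9, 8 and 8 of 13 at 1 CPM or more. Leukocyte and endothelial markers summed to 36.9, 7.51 and 6.03 CPM, with 7, 2 and 2 of 11 at that level, and KDR was the one that could be tested, at -2.09 and -2.13. The markers without a count were TWIST1, FOXA1 and CD3E in the control and PGR and MS4A1 in the first mimic library, and none was at 0 in the second. The part of these markers in the other ratios was not tested.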

How the data were processed

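Ago-RIP-seq libraries of MDA-MB-231 cells were taken as deposited. Per the labels and methods, reads were checked (FastQC 0.11.9), trimmed (Cutadapt 3.5) and aligned to GRCh38 (STAR 2.7.11b), and the authors deposited STAR's counts of read pairs per gene, not normalized. The Ensembl release was not given in the sources used here. The unstranded counts were used. Only pairs on 1 place and 1 gene are counted, which lowers genes with copies or overlaps. The rows that name no gene held 95.0% of the pairs of the control AGO2-IP and 21.9% and 21.4% of those of the mimic AGO2-IP, and they were left out of library sizes.

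TMM factors and CPM (prior count 2) were computed with edgeR 4.0.16 in R 4.3.3 over genes with a summed count of 200, and for the flow-through in the same way. The code was tested on simulated data. With 1 control AGO2-IP library no p-value was computed, and the oligonucleotide cannot be told apart from that library's composition. The study's methods name DESeq2, here used for its size factors only (version 1.42.0). GENCODE release 44 (GRCh38) gave names for 11460 of the tested genes, GC and 3′ UTRs. The GC trend was removed with a lowess curve (span 0.2). Intervals are 95% and cover counting error only, since no molecular identifiers are described.

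The comparison, its members and the gene lists were chosen with earlier results of these data known, and 4 lists (nucleolar, chaperone, NF-kB, endoplasmic reticulum) after its leading genes had been seen. Named by rule were the study's genes, the miR-99 family genes, the 10 highest and 10 lowest protein-coding and 5 and 5 other genes by the ratio nearer 0, the 2 highest and 2 lowest members of each list, and the 5 highest and 5 lowest genes with an 8mer. Some genes that this rule names are not reported here. Other members of the hnRNP, microRNA pathway, nucleolar, NF-kB and target lists were named after their values were seen. Alternatives covered scaling, count filters, prior count, strand columns, thinning, the GC trend, the control used, other site definitions and each mimic library left out.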

Additional observations from a re-analysis of the deposited data

Results flagged for a closer look

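In 11 of the 186 named genes both AGO2-IP ratios lay on one side of 0 and both flow-through ratios on the other. The difference was not tested. Of all 11234 genes with both ratios 1303 did so (11.6%). FKBP5 (mean log2 ratios of 1.56 for AGO2-IP and -0.55 for flow-through), MALAT1 (2.12 and -0.62) and SNRPD1 (2.22 and -0.12) were higher in both mimic AGO2-IP libraries. MALAT1, a nuclear long non-coding RNA, was at 1.15 and 3.10 in the mimic AGO2-IP libraries, so its size rested on the second. DNAJB11 was at 0.63 and -1.36. The others were below 0 in the AGO2-IP and above it in the flow-through. These were BAK1 (-0.37 and 0.98), BAX (-0.32 and 0.57), GAPDH (-0.43 and 0.70), LIMD1 (-0.35 and 0.99), PSMD9 (-0.80 and 0.37), TRIB2 (-0.43 and 0.26) and RPTOR (-0.36 and 1.003).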

How the results depend on the processing

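The 4 main results were the numbers of higher (1398) and lower (1397) genes, the TRAIL pathway median (-1.19) and the median of genes with a miR-99 site of 7 or 8 bases (0.09). The counts moved by over 1.5 times when 200 counts were asked of every library (805 higher and 790 lower, of 6595 genes), when a summed count of 10 was enough (3309 and 3580, of 20326) and, for higher genes, with the GC trend removed (824). The TRAIL median became -1.32 with library size alone, -0.87 with a summed count of 10, -0.65 with the GC trend removed and -0.46 with both control libraries as the control; it kept its sign in all of these. The site median became -0.046, 0.40, 0.033 and 0.35 in the same settings, 0.20 with 200 counts in every library and 0.038 for sites in coding sequence, so its sign depended on the scaling. The genes without a site also moved, to -0.12, 0.33, 0.04 and 0.05 in those 4 settings, and the median of all genes was at -0.11 with library size alone. Leaving out each mimic library gave 1995 to 2275 higher genes, 2056 to 2232 lower genes, a TRAIL median of -1.15 to -0.999 and a site median of 0.081 to 0.12. These counts are larger because 1 ratio has to pass the limit instead of 2. Library size alone gave 1114 higher and 1677 lower genes, and both control libraries as the control gave 1602 and 1622. Further settings were DESeq2 size factors, a prior count of 0.5, either strand column, protein-coding genes only, thinning and leaving out mitochondrial genes. They gave 1136 to 1547 higher genes and 1189 to 1444 lower genes. The TRAIL median was -1.26 to -1.15 in them and the site median 0.062 to 0.11. Thinning with the genes of the full counts kept, an alternative chosen after seeing the data, gave a site median of 0.07. Of 2481 values of 186 named genes under 14 alternatives, 465 moved by more than the SD of the gene's own 2 mimic ratios. Leaving out 1 of 2 mimic libraries shifts a mean by less than that SD wherever the ratios differ. The 183 unmoved values in each of these 2 alternatives were therefore fixed in advance and do not measure stability. No gene counted as higher or lower changed sign. The cause of these changes was not tested. No paired analysis was possible because the control AGO2-IP is 1 library without a replicate number. The control library limits depth: 249 of the higher genes and 12 of the lower ones rested on under 50 control counts, as did 1501 of all genes tested.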

Other observations

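Some genes had most of their counts in mimic replicate 1, in both fractions. KBTBD8 had 17 counts in the control AGO2-IP against 1206 and 91 with the mimic, and in the flow-through 6 for the control and 366 and 20 for the mimic. IFI44, an interferon-induced gene, had 18, 932 and 133 and then 12, 472 and 63. COL1A2, a fibrillar collagen, ran the other way, with 519, 138 and 906 in the AGO2-IP and 36, 54 and 1029 in the flow-through. For these genes a mean over the mimic libraries describes neither library. None of them was counted as higher, and COL1A2 was counted as lower, at -4.31 and -1.27.

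Processed pseudogenes, which share sequence with their parent genes, were higher in 25 of 71 (35.2%) and lower in 2 (2.82%), with a median ratio of 0.88. HNRNPA1P7 was at 2.30 and 2.44 and NPM1P27 at 3.26 and 2.16, beside 1.80 and 2.08 for HNRNPA1 and 3.45 and 2.53 for NPM1. Of 389 long non-coding RNA genes 42 were higher (10.8%) and 17 lower (4.37%). NORAD, a cytoplasmic long non-coding RNA that binds PUM proteins, was at -0.18 and 0.34.

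Of 43 histone genes 1 was higher (2.33%) and 2 were lower (4.65%), against 12.2% of all genes in each direction. Their median of -0.31 became 0.34 without the GC trend. H4C2 was at 378, 2809 and 993 CPM and H1-4 at 624, 129 and 427 CPM, so that in both the mimic libraries were more than 2-fold apart. Of 24 interferon-stimulated genes 4 were higher (16.7%) and 1 lower (4.17%). Their median was 0.34 in the first mimic library and -0.25 in the second. IFIT2 was at 2.87 and 1.47 and BST2 at -0.94 and -2.46. Of 13 immediate early genes 3 were lower (23.1%) and none was higher. The lower ones included IER3 at -1.70 and -2.13 and FOSL1 at -2.25 and -1.03 (mean of -0.92 without the GC trend). DUSP1 was at 2.93 and 0.59. Of 17 glycolysis genes 1 was higher and 1 lower (5.88% each). HK2 was higher, at 1.80 and 1.70, and PFKL lower, at -1.28 and -1.58, with a mean of -0.48 without the GC trend.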
